A study of Mus musculus with 4 samples.

Results

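Glycolysis and hypoxia-induced genes comprised 37 mouse genes in this study: 2 glucose transporters, 15 glycolytic enzymes, 4 genes of lactate export and flux regulation, 2 HIF alpha subunits and 14 other targets of the hypoxia-inducible factors (HIF). Members were found by matching the RefSeq accession of each array probe to a list of gene names. The matching used no measured values, but the list was chosen with earlier results of these data known. The match gave 52 of 41174 probes, of which 51 passed the filter on dim probes, and all 37 genes were among the 21754 genes or transcripts tested. A gene was represented by its brightest probe unless stated otherwise.

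The samples were RNA of D3 cells, an established mouse embryonic stem cell line, seeded as embryoid bodies without LIF (the factor that holds these cells undifferentiated) in medium with serum. Silenced cells were transfected by lipofection with siRNA against Pnpla6, which encodes neuropathy target esterase, an enzyme that breaks down membrane phospholipids; what the control cells received is not given in the labels. No low-oxygen treatment is named for any group. The 4 groups were silenced cells at 96 h, control cells at 96 h, silenced cells at 24 h and control cells at 24 h. Each of 4 two-colour Agilent arrays carried silenced and control RNA of 1 time, with 2 arrays per time. Silenced RNA was in Cy3 on replicate 1 and in Cy5 on replicate 2 at each time. Whether replicates are separate cultures is not stated, so p-values measure only the spread between these arrays, which may be technical. The fit of ratios holds a term for dye orientation, which is also the replicate number. That term takes out the gap between replicates shared by both times, and the spread left is largely pooled over genes. The SE is thus no measure of how closely a gene's 2 arrays matched. At 96 h it was 0.06 for both Bnip3 and Aldoa, whose arrays lay 0.00 and 1.92 log2 apart.

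Glycolysis splits glucose into pyruvate in the cytosol, and lactate dehydrogenase turns pyruvate into lactate, which is then exported. HIF is a transcription factor made of an alpha subunit, such as Hif1a or Epas1, and a constant partner. At normal oxygen, prolyl hydroxylases such as Egln1 mark the alpha subunit for destruction, so that HIF activity is set largely by protein stability and not by the alpha subunit's mRNA. Stabilised HIF binds short sites with the core ACGTG or GCGTG and raises transcription of glycolytic genes and of genes for mitophagy, collagen modification and its own feedback. Embryonic stem cells are known to depend strongly on glycolysis.

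Promoter sequences show how far that core is shared among the members. The windows are the 250 bases before the annotated start in RefSeq's table for GRCm38.p6, and the motifs ACGTG and GCGTG were searched on both strands, so that CACGT and CACGC are the same motifs on the other strand and a CACGTG site counts as 2 matches. An entry existed for 32 of 37 members; Plod2, Ndrg1, Epas1, Slc2a3 and Bnip3l had none. The 4 promoters Pfkp, Bnip3, P4ha1 and Ankrd37 are shown as examples of members that were higher in silenced cells at 96 h. Ldha is shown as a glycolytic enzyme with many matches that did not pass the test. Vldlr is shown as the 1 member whose silencing effect passed as lower at 96 h than at 24 h. Capitals mark the matches. Positions are Pfkp chr13:6648772-6649021 (minus strand), Bnip3 chr7:138909507-138909756 (minus strand), P4ha1 chr10:59323046-59323295 (plus strand), Ankrd37 chr8:45999851-46000100 (minus strand), Ldha chr7:46845554-46845803 (plus strand) and Vldlr chr19:27216234-27216483 (plus strand), each printed 5′ to 3′ on its gene's strand.
Pfkp: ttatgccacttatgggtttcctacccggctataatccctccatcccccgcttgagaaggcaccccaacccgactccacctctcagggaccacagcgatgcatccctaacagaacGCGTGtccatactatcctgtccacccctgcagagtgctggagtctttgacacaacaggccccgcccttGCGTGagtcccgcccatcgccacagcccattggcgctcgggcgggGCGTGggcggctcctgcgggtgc
Bnip3: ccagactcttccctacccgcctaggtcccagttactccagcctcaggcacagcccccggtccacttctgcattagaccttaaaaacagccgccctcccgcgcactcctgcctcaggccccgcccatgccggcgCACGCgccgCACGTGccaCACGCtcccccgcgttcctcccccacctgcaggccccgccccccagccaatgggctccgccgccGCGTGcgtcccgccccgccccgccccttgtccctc
P4ha1: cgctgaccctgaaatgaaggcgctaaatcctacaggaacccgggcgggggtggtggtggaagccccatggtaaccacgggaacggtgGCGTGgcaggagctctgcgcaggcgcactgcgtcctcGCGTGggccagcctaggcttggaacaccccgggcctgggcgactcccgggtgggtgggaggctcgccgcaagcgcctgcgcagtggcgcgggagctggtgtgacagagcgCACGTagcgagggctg
Ankrd37: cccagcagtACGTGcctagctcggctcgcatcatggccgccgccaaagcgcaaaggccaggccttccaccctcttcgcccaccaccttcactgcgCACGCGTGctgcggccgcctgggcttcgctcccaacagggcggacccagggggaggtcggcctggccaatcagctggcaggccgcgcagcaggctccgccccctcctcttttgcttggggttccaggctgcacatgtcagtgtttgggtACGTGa
Ldha: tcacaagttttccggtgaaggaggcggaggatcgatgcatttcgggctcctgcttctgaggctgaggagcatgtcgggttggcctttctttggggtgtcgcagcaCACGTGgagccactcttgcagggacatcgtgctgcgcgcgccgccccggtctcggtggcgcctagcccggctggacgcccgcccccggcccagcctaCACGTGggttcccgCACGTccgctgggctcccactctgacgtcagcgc
Vldlr: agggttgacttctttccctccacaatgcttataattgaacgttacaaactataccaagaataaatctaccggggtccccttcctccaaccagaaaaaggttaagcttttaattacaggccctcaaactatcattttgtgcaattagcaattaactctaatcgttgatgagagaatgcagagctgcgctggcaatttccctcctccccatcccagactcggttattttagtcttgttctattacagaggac

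The Pfkp window held 3 matches, all GCGTG. Bnip3 held 5, of which 2 lie inside a CACGTG site, P4ha1 held 3 and Ankrd37 held 4. Ldha held 5 matches, of which 4 lie inside CACGTG sites, and Vldlr held 0 in this window and 0 in its other annotated promoter. Members higher at 96 h whose promoters are not shown held 0 (Gpi1), 1 in each promoter (Aldoc), 2 (Hk2 and Egln1) and 3 (P4ha2 and Ero1a). At least 1 promoter with a match was found for 29 of the 32 members (90.6%), against 58.7% of the 10522 tested genes with an entry and 41.5% of all 27018 genes of the table. Median GC content was 63.4% for the members, 59.2% for the tested genes and 52.0% for the table. Among members with an entry, 9 of 10 that were higher in silenced cells at 96 h had a match (90%), against 20 of 22 that did not pass the test (90.9%). With 2 or more matches in a promoter the numbers were 8 of 10 (80%) and 12 of 22 (54.5%), against 29.9% of the tested genes. Median GC content was 69.6% for the members higher at 96 h and 59.4% for those that did not pass. These shares were not tested against each other. By role, 13 of 15 glycolytic enzymes (86.7%) and 10 of 11 other HIF targets with an entry (90.9%) had a match.

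Between 62.5% and 68.7% of the 43379 spots were well above background in each channel, and 0 of 70 member spots were saturated. Every member was well above background in all 8 channels except Epas1, which was so in 7 and on 1 of 2 arrays in control cells at 96 h. The targeted gene, Pnpla6, had log2 ratios of silenced to control cells of -0.73 and -1.0 on the 24 h arrays, a fitted value of -0.87 ± 0.06 (SE) that left 54.9% of the control level (adjusted p = 2.6e-11). At 96 h its ratios were 0.12 and -0.11, with a fitted value of 0.01 ± 0.06 (adjusted p = 0.96), so the mRNA was lower in silenced cells at the earlier time only by this test. All 8 embryonic stem cell markers were well above background on every array. The arrays fell on 2 slides, with replicate 2 of 96 h alone on the second, so slide and array cannot be told apart.

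At 24 h, when Pnpla6 mRNA was lower in silenced cells, no member passed the test. In limma's fit with a dye term, adjusted over all 21754 genes, 0 of 37 members passed an adjusted p of 0.05, against 81 genes (0.372%). The fitted values of the members ran from -0.15 to 0.15 with a median of 0.01, and 3 members had an unadjusted p under 0.05. These were Pfkl at 0.14 ± 0.06, Vldlr at 0.15 ± 0.06 and Ddit4 at -0.15 ± 0.06, with adjusted p-values of 0.53 to 0.54. On both 24 h arrays 3 of 37 members were positive (8.11%), against 19.4% of all genes.

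At 96 h, when Pnpla6 did not pass, 13 of 37 members were higher in silenced cells and 0 were lower. Over all genes tested, 13.4% passed in either direction, 6.61% as higher and 6.80% as lower. The 13 were 9 of 14 other HIF targets and 4 of 15 glycolytic enzymes, and none of the glucose transporters, lactate and flux genes or HIF alpha subunits. Of the 13, 12 had positive ratios on both 96 h arrays, all but Gpi1; over all genes 6.26% passed as higher with that agreement. The members' fitted values reached at most 1.51-fold, and the normexp offset of 50 draws ratios of dim probes towards 0. In embryoid bodies that hold several cell types, more cells of a type and more RNA per cell cannot be told apart.

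The count rests on the dye term. Without it, 0 of 37 members and 106 of 21754 genes passed in limma's fit, with 8 members at an unadjusted p under 0.05, and with the authors' own log ratios 0 members and 0 genes passed, with 14 members at an unadjusted p under 0.05. A dye term could not be fitted with an array left out; on the first slide alone, without it, 0 members passed and 4 had an unadjusted p under 0.05, the lone 96 h array being assumed to vary like the 24 h arrays. With an offset of 16 in place of 50, the count was 4: Ndrg1, Pfkp, P4ha1 and Ankrd37. With median centring in place of loess the count was 11, and the genes that passed were 1126 higher and 672 lower, against 1438 higher and 1480 lower in the fit reported here.

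**Figure D1:**
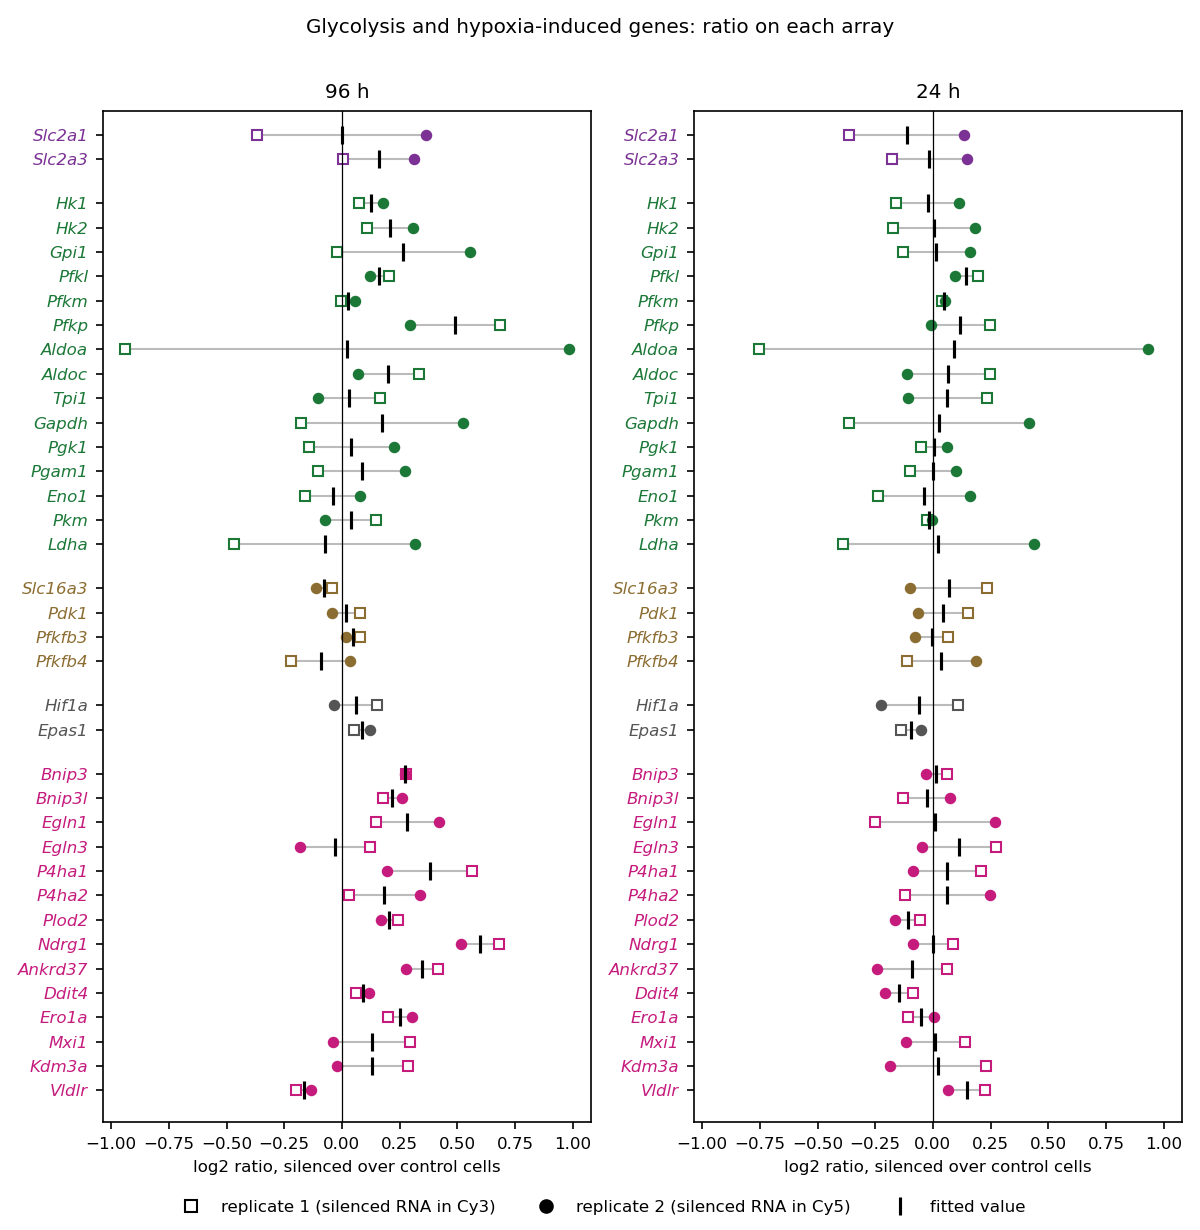
Log2 ratio of silenced to control cells for the 37 members on each array, with 96 h at left and 24 h at right. Open squares are replicate 1 (silenced RNA in Cy3), filled circles replicate 2 (silenced RNA in Cy5), and black ticks the fitted values; at 96 h most other HIF targets lie right of 0 on both arrays, while Aldoa runs from -0.94 to 0.98.

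Ndrg1, which encodes a cytoplasmic protein induced by stress and differentiation and is widely used as a hypoxia marker, had the highest fitted value of the members. Its log2 ratios were 0.68 and 0.51 on the 96 h arrays, against 0.09 and -0.09 on the 24 h arrays. Both 96 h arrays lay above both 24 h arrays. Here and below, such overlap was read from the arrays that were tested, and its share over all genes was not counted. The fitted value at 96 h was 0.60 ± 0.06 (SE), or 1.51-fold, with an adjusted p of 5.1e-09. Its normalized log2 intensity was 10.26 and 10.10 in silenced cells at 96 h, against 9.58 and 9.58 in control cells at 96 h, without overlap.

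Ankrd37, an ankyrin repeat protein and direct HIF target, had ratios of 0.42 and 0.28 on the 96 h arrays, against 0.06 and -0.24 at 24 h. Both 96 h values again exceeded both 24 h values. The fitted value was 0.35 ± 0.06, or 1.27-fold, with an adjusted p of 1.3e-04. Log2 intensities were 7.60 and 7.54 in silenced cells and 7.19 and 7.26 in control cells at 96 h.

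All 3 members that hydroxylate collagen were higher. P4ha1, a catalytic subunit of collagen prolyl hydroxylase, had ratios of 0.57 and 0.19 at 96 h, against 0.21 and -0.09 at 24 h, so that its arrays overlapped between times. The fitted value at 96 h was 0.38 ± 0.06, or 1.30-fold (adjusted p = 3.0e-05). P4ha2, the second catalytic subunit, had 0.03 and 0.34 at 96 h, against -0.12 and 0.25 at 24 h, with a fitted value of 0.18 ± 0.06 (adjusted p = 0.044), close to the threshold. Plod2, a collagen lysyl hydroxylase, had 0.24 and 0.17 at 96 h, against -0.05 and -0.16 at 24 h, and the times did not overlap. Its fitted value was 0.21 ± 0.06 (adjusted p = 0.021).

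Ero1a, an oxidase of the endoplasmic reticulum that drives disulfide formation, had ratios of 0.20 and 0.30 at 96 h, against -0.11 and 0.00 at 24 h, without overlap. The fitted value was 0.25 ± 0.06 (adjusted p = 0.0043). Bnip3, a mitochondrial receptor for mitophagy, had the closest 96 h arrays of the members that passed, at 0.28 and 0.27 at 96 h, against 0.06 and -0.03 at 24 h. Its fitted value was 0.27 ± 0.06 (adjusted p = 0.0020). The related receptor Bnip3l had 0.18 and 0.26 at 96 h, against -0.13 and 0.08 at 24 h, with a fitted value of 0.22 ± 0.06 (adjusted p = 0.015). Both mitophagy receptors were thus higher at 96 h on both arrays.

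Egln1, the main prolyl hydroxylase that marks HIF alpha for destruction and itself a HIF target, had ratios of 0.15 and 0.42 at 96 h, against -0.25 and 0.27 at 24 h. Replicate 2 of 24 h lay between the 96 h arrays. The fitted value at 96 h was 0.28 ± 0.06 (adjusted p = 0.0018). The 5 other HIF targets that did not pass were Vldlr at -0.17 ± 0.06 (adjusted p = 0.084), Kdm3a at 0.13 ± 0.06, Mxi1 at 0.13 ± 0.06, Ddit4 at 0.09 ± 0.06 and Egln3 at -0.03 ± 0.06. Egln3 is a second HIF prolyl hydroxylase, Kdm3a a histone demethylase, Mxi1 a repressor that opposes MYC, Ddit4 an inhibitor of mTOR signalling and Vldlr a lipoprotein receptor.

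The HIF alpha subunits themselves did not pass. Hif1a had ratios of 0.15 and -0.03 at 96 h, against 0.11 and -0.23 at 24 h, with opposite signs on the arrays of each time. Its fitted value at 96 h was 0.06 ± 0.06 (adjusted p = 0.62). Epas1 had 0.05 and 0.12 at 96 h, against -0.14 and -0.05 at 24 h, with a fitted value at 96 h of 0.09 ± 0.06 (adjusted p = 0.43). That value depended on the processing: over 11 alternative fits it ran from 0.05 to 0.57. The Epas1 probe was dim, with a mean log2 intensity of 6.46, so its change at 96 h is poorly fixed by these arrays.

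Among glycolytic enzymes, Pfkp had the highest fitted value. It encodes the platelet-type subunit of phosphofructokinase, which commits sugar to glycolysis. Its ratios were 0.69 and 0.30 at 96 h, against 0.25 and -0.01 at 24 h. Both 96 h arrays lay above both 24 h arrays, and the fitted value at 96 h was 0.49 ± 0.06, or 1.41-fold (adjusted p = 4.0e-07). Log2 intensities at 96 h were 11.80 and 11.61 in silenced cells, against 11.12 and 11.32 in control cells.

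Hk2, an inducible hexokinase that traps glucose in the cell, had ratios of 0.11 and 0.31 at 96 h, against -0.17 and 0.18 at 24 h, and a fitted value of 0.21 ± 0.06 (adjusted p = 0.021). Aldoc, an aldolase best known from brain, had 0.33 and 0.07 at 96 h, against 0.25 and -0.11 at 24 h, and a fitted value of 0.20 ± 0.06 (adjusted p = 0.026). In each of these the 96 h and 24 h arrays overlapped. Gpi1, the isomerase of the second step, also passed with a fitted value of 0.27 ± 0.06 (adjusted p = 0.0036), but its 96 h arrays were of opposite sign, at -0.02 and 0.56.

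The other 11 glycolytic enzymes did not pass. Their fitted values at 96 h ran from -0.07 for Ldha to 0.17 for Gapdh (adjusted p = 0.060), with Pfkl at 0.16 ± 0.06 (adjusted p = 0.081). Ldha, which makes lactate from pyruvate, had ratios of -0.47 and 0.32 at 96 h, against -0.39 and 0.44 at 24 h, so that replicate 1 was negative and replicate 2 positive at each time. Its fitted value at 96 h was -0.07 ± 0.06 (adjusted p = 0.51). The main glucose transporter Slc2a1 showed the same signs by array, with -0.37 and 0.37 at 96 h, against -0.37 and 0.14 at 24 h, and a fitted value of 0.00 ± 0.06. Slc2a3, the high-affinity transporter, had a fitted value of 0.16 ± 0.06 (adjusted p = 0.086). The lactate exporter Slc16a3, the pyruvate dehydrogenase kinase Pdk1, and Pfkfb3 and Pfkfb4, which set the level of an activator of phosphofructokinase, ran from -0.09 to 0.05.

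**Figure D2:**
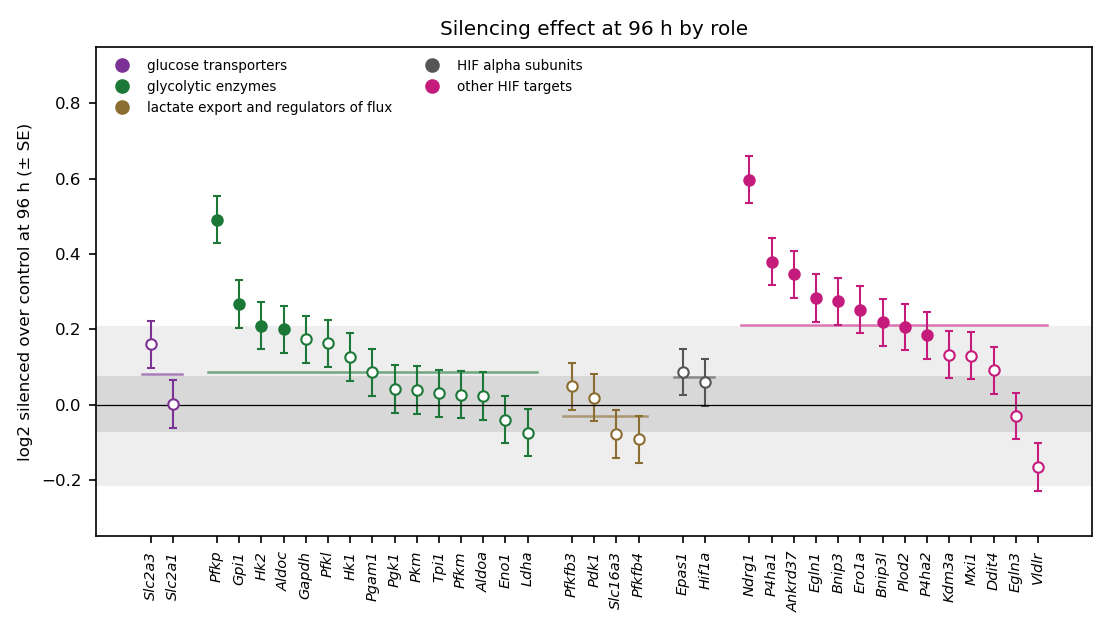
Fitted log2 ratio of silenced to control cells at 96 h (points, bars ± SE) by role, with filled points for members past the adjusted p threshold and a line at each group's median. Grey bands hold the middle 50% and 90% of all 21754 genes tested; the median of the other HIF targets is 0.21 and that of the glycolytic enzymes 0.09.

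Side by side, the other HIF targets had a median log2 ratio of 0.21 at 96 h, with 9 of 14 past the test (64.3%) and 10 of 14 positive on both arrays (71.4%). The glycolytic enzymes had a median of 0.09, with 4 of 15 past the test (26.7%) and 5 of 15 positive on both arrays (33.3%). All genes tested had a median of 0.00, and 25.8% were positive on both arrays. At 24 h the medians were 0.01 for the other HIF targets and 0.02 for the glycolytic enzymes. The difference between the lists was not tested.

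The lists also differed in how closely the dye-swapped arrays matched. The median absolute gap between the 2 arrays of 96 h was 0.15 log2 for the other HIF targets and 0.27 for the glycolytic enzymes, against 0.14 over all genes. A gap over 0.5 was found for 0 of 14 other HIF targets and 4 of 15 glycolytic enzymes, against 3.59% of all genes. The 4 were Gpi1, Aldoa, Gapdh and Ldha, with mean log2 intensities of 15.74 to 17.45, against 7.27 to 13.46 for the other HIF targets. Pgk1, Pgam1 and Tpi1, at 15.24 to 16.11, had gaps of 0.27 to 0.38. Whether the gap goes with brightness was not tested. Aldoa, chosen after its values were seen, had the widest gap: -0.94 and 0.98 at 96 h and -0.75 and 0.93 at 24 h. On replicate 1 the median ratio of the glycolytic enzymes at 96 h was -0.01 and on replicate 2 it was 0.23, while for the other HIF targets it was 0.22 and 0.23. At 24 h the medians were -0.10 on replicate 1 and 0.10 on replicate 2 for the glycolytic enzymes, and 0.06 on replicate 1 and -0.07 on replicate 2 for the other HIF targets. The other HIF targets thus had a median of 1 sign on both arrays at 96 h and not at 24 h, and the glycolytic enzymes at neither time.

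Counted by probe, 17 of 51 member probes were higher at 96 h and 0 were lower, against 12.9% of 28082 probes in either direction and 6.25% as higher. Probes of 1 gene did not always match. The second Pfkp probe had a fitted value of 0.00 ± 0.06, against 0.49 for the brightest, the second Egln1 probe 0.04 ± 0.06 against 0.28, and the second Bnip3l probe 0.07 ± 0.06 against 0.22. Mean log2 intensities of the second and brightest probe were 6.93 and 11.41 for Pfkp, 6.42 and 8.30 for Egln1 and 9.04 and 11.71 for Bnip3l. The offset draws ratios of dim probes towards 0, and its part in these gaps was not tested. The second P4ha1 probe, which passed, was as dim, at 6.42. For P4ha1 the second probe also passed, at 0.19 ± 0.06 (adjusted p = 0.043), and for Ero1a at 0.27 ± 0.06 (adjusted p = 0.0019). Hk1, whose brightest probe did not pass at 0.13 ± 0.06, had 2 other probes that did, at 0.20 ± 0.06 and 0.20 ± 0.07. With the mean of a gene's probes, 10 members passed at 96 h.

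**Figure D3:**
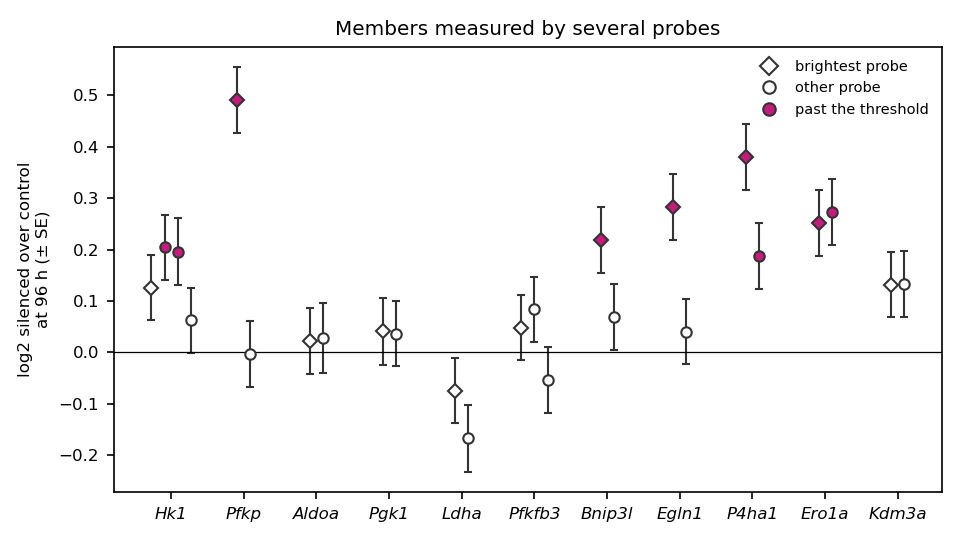
Fitted log2 ratio of silenced to control cells at 96 h (points, bars ± SE) for each probe of the 11 members with several probes past the filter. Diamonds are the brightest probe of a gene and circles its other probes, filled where past the adjusted p threshold; both Ero1a and both P4ha1 probes are filled, and 1 of 2 for Pfkp, Egln1 and Bnip3l.

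Whether the silencing effect itself differed between the times was tested as a contrast of the same fit. It was larger at 96 h than at 24 h for 6 members (Ndrg1, Ankrd37, Pfkp, P4ha1, Plod2 and Ero1a) and lower for 1, Vldlr. Over all genes, 6.92% passed, 2.83% as higher and 4.10% as lower. The difference, 96 h minus 24 h, was 0.60 ± 0.09 log2 for Ndrg1 (adjusted p = 1.0e-05), 0.44 ± 0.09 for Ankrd37 (adjusted p = 0.0011) and 0.37 ± 0.09 for Pfkp (adjusted p = 0.0056). P4ha1, Plod2 and Ero1a had differences of 0.30 to 0.32 with adjusted p-values of 0.020 to 0.027. Vldlr had ratios of -0.20 and -0.13 at 96 h, against 0.23 and 0.07 at 24 h, and a difference of -0.31 ± 0.09 (adjusted p = 0.027). All of its 96 h values were negative and all of its 24 h values positive. Of the 15 glycolytic enzymes only Pfkp passed this test, and of the 14 other HIF targets 6 did. This contrast too gave 0 members without the dye term, with 6 at an unadjusted p under 0.05, 1 (Ndrg1) with an offset of 16 and 3 with median centring. Vldlr passed in none of these fits. It did not pass with no background correction (7 members higher, 0 lower) or with the mean of probes (4 higher, 0 lower) either. With no filter, and with probes well above background in all 8 channels, it still passed.

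**Figure D4:**
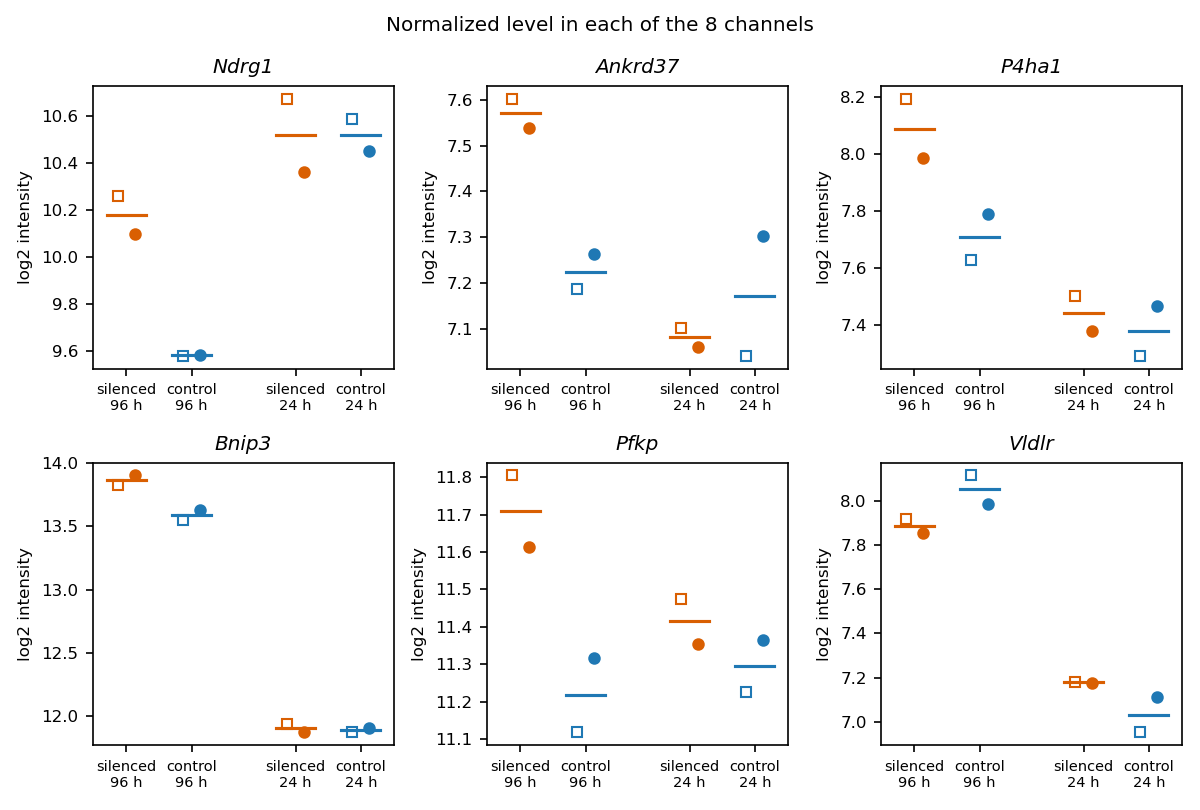
Normalized log2 intensity of 6 members in each of the 8 channels, silenced cells in orange and control cells in blue, squares for replicate 1, circles for replicate 2 and lines for the mean. Ndrg1 is at 10.26 and 10.10 in silenced cells against 9.58 and 9.58 in control cells at 96 h, and Vldlr is higher at 96 h than at 24 h in either kind of cell.

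Levels at 96 h were also compared with those at 24 h within each kind of cell. In a fit of the 8 single channels, 22 of 37 members differed between 96 h and 24 h in silenced cells (19 higher, 3 lower at 96 h) and 21 in control cells (18 higher, 3 lower). Over all genes, 37.8% passed in silenced cells (18.1% higher, 19.7% lower) and 36.8% in control cells (17.9% higher, 18.9% lower). These changes share their arrays with the silencing comparisons. Without normalization between arrays, the genes that passed were split 4906 higher and 2885 lower in silenced cells and 4860 higher and 2769 lower in control cells, with the median change of all genes at 0.07 in each, against -0.03 with normalization, and the members 21 higher and 2 lower in silenced cells and 15 higher and 3 lower in control cells.

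Ddit4 rose most at 96 h: its log2 intensity was 14.94 and 14.94 in silenced cells at 96 h, against 12.09 and 11.87 in silenced cells at 24 h. In control cells it was 14.88 and 14.82 at 96 h, against 12.17 and 12.07 at 24 h. The changes were 2.96 ± 0.12 (SE) in silenced cells and 2.73 ± 0.12 in control cells, or 7.80-fold (adjusted p = 8.1e-06) and 6.62-fold (adjusted p = 9.1e-06). Bnip3 followed, with 13.83 and 13.90 in silenced cells at 96 h, against 11.93 and 11.87 at 24 h, and 13.55 and 13.63 in control cells at 96 h, against 11.87 and 11.90 at 24 h. It rose by 1.96 ± 0.09 in silenced cells and 1.70 ± 0.09 in control cells, the silenced cells being above the control cells on both arrays at 96 h. Aldoc rose by 1.49 ± 0.09 in silenced cells and 1.36 ± 0.09 in control cells. Plod2 rose by 1.32 ± 0.12 in silenced cells and 1.01 ± 0.12 in control cells. In each member of this paragraph, the 96 h levels lay above the 24 h levels without overlap in both kinds of cell. They were chosen as the largest rises on these same levels, so this separation is no added support. Its share over all genes was not counted. P4ha2 rose by 1.23 ± 0.09 in silenced cells and 1.11 ± 0.09 in control cells. Slc2a1 rose by 1.06 ± 0.13 in silenced cells and 0.95 ± 0.13 in control cells. Vldlr rose by 0.71 ± 0.13 in silenced cells and 1.02 ± 0.13 in control cells, a rise that was smaller in silenced cells.

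Ndrg1 fell with time, by 0.34 ± 0.10 in silenced cells with an adjusted p of 0.037 (10.26 and 10.10 at 96 h, against 10.67 and 10.36 at 24 h) and by 0.94 ± 0.10 in control cells with an adjusted p of 4.5e-04 (9.58 and 9.58 at 96 h, against 10.59 and 10.45 at 24 h). Its higher ratio at 96 h thus came with a smaller fall in silenced cells. Kdm3a fell by 0.58 ± 0.12 in silenced cells and by 0.69 ± 0.12 in control cells. Epas1 fell by 0.58 ± 0.09 in silenced cells and by 0.76 ± 0.09 in control cells. Ankrd37 rose in silenced cells, by 0.49 ± 0.11 (adjusted p = 0.011), and had 0.05 ± 0.11 in control cells (adjusted p = 0.75). Pfkp passed in neither, with 0.29 ± 0.10 in silenced cells (adjusted p = 0.051) and -0.08 ± 0.10 in control cells (adjusted p = 0.59).

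By role, both glucose transporters rose in silenced and in control cells, by 0.80 to 1.06. Among the other HIF targets, 10 of 14 rose and 2 fell in silenced cells, and 9 rose and 2 fell in control cells, with medians of 0.68 in silenced cells and 0.56 in control cells. Of the glycolytic enzymes 5 of 15 rose in silenced cells and 4 in control cells, with medians of 0.20 in silenced cells and 0.10 in control cells. Aldoc, Pfkm, Pgk1 and Pfkl passed in both kinds of cell and Gpi1 in silenced cells. Pdk1 rose by 0.81 ± 0.10 in silenced cells and 0.84 ± 0.10 in control cells. Hif1a mRNA did not pass in either (0.14 ± 0.11 in silenced cells and 0.02 ± 0.11 in control cells).

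**Figure D5:**
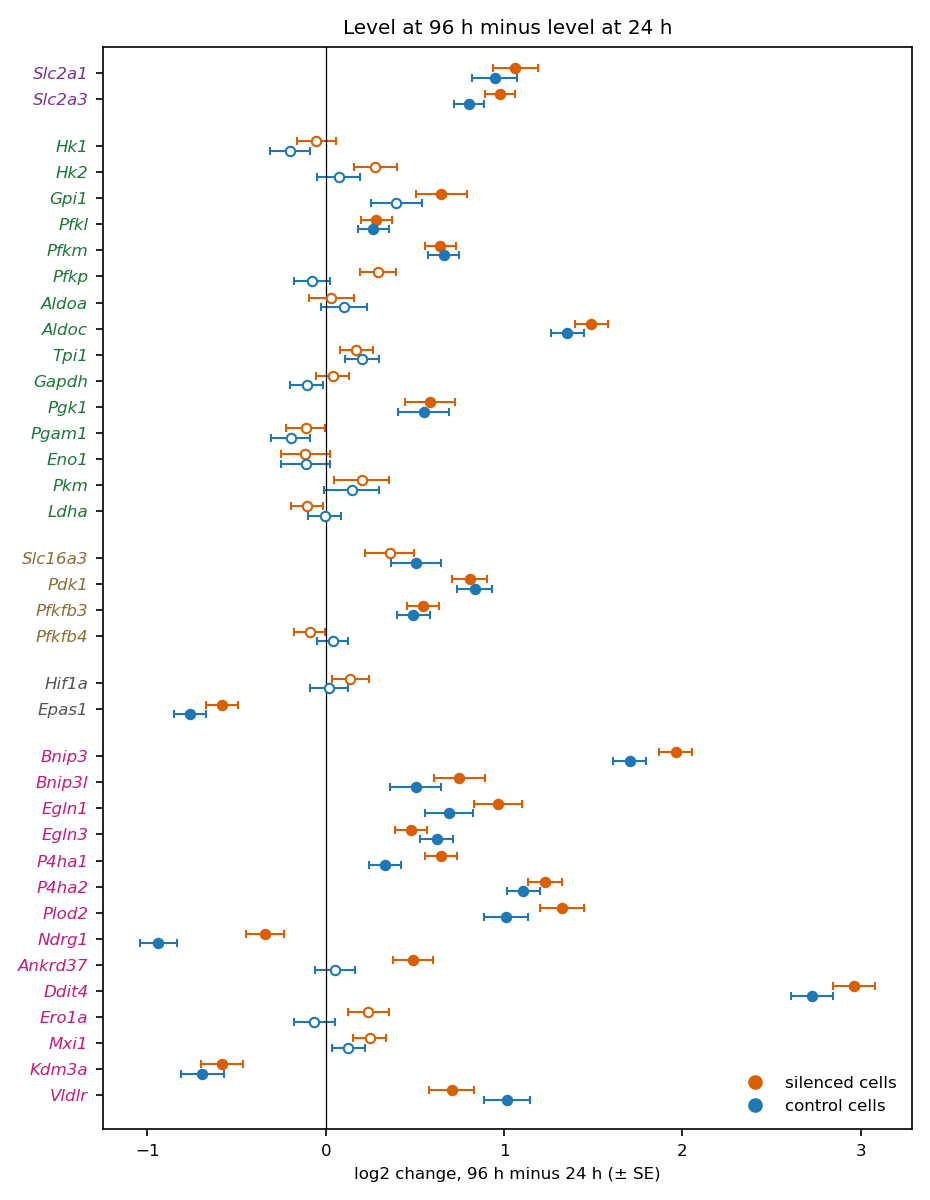
Change in log2 intensity, level at 96 h minus level at 24 h (points, bars ± SE), for the 37 members in silenced cells (orange) and control cells (blue), filled where past the adjusted p threshold. Ddit4 is farthest right at 2.96 in silenced cells and 2.73 in control cells, and Ndrg1 lies left of 0 at -0.34 in silenced cells and -0.94 in control cells.

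Other genes of the same pathways were counted at 96 h in the fit with the dye term only, beside 6.61% higher and 6.80% lower over all genes. Of 33 further HIF targets tested, 11 were higher in silenced cells (33.3%) and 0 lower, with a median of 0.09, and 10 of the 11 were positive on both arrays. They included Anxa2, a membrane-binding annexin, at 0.60 and 0.52 (fitted 0.56, adjusted p = 4.2e-08), Loxl2, a collagen crosslinking oxidase, at 0.42 and 0.60 (fitted 0.51, adjusted p = 2.2e-07), Kdm4b, a histone demethylase, at 0.56 and 0.25 (fitted 0.41, adjusted p = 1.2e-05) and the angiogenic ligand Vegfa at 0.24 and 0.46 (fitted 0.35, adjusted p = 1.2e-04). Of 14 HIF partners and regulators only Siah2, a ubiquitin ligase, passed, at 0.42 and -0.01 (fitted 0.20, adjusted p = 0.026).

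Of 17 other glycolysis and lactate genes, 4 were higher (23.5%) and 1 lower (5.88%), with a median of 0.01, against 6.61% higher and 6.80% lower over all genes. Ldhb, the other lactate dehydrogenase subunit, had ratios of 0.08 and 0.92 (fitted 0.50, adjusted p = 4.0e-06), Pgam2 0.63 and 0.13 (fitted 0.38, adjusted p = 3.4e-05) and Eno2 0.41 and 0.32 (fitted 0.37, adjusted p = 7.1e-05). Pgam2 encodes a phosphoglycerate mutase and Eno2 an enolase. The monocarboxylate transporter Slc16a1 was lower, at -0.28 and -0.35 (fitted -0.32, adjusted p = 4.8e-04). Among 12 gluconeogenesis and glycogen genes, where 2 passed (16.7%), the phosphorylase Pygl was higher at 0.47 and 0.50 (fitted 0.48, adjusted p = 7.7e-07), with Gys1 at 0.23 and 0.21 (fitted 0.22, adjusted p = 0.014). Of 12 genes of pyruvate entry into mitochondria 2 passed (16.7%): Pcx (fitted 0.25, adjusted p = 0.0059) and Pdk4 (fitted 0.23, adjusted p = 0.012) were higher. Of 7 genes of the pentose phosphate route 1 passed (14.3%), G6pdx, which was lower (fitted -0.19, adjusted p = 0.038). In either direction 13.4% of all genes passed.

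Markers of cell state moved at the same time, and their part in these results was not tested. At 96 h, 3 of 4 epiblast markers (Fgf5, Dnmt3b and Pou3f1) were lower in silenced cells, with a summed intensity of 10246 and 10655 in silenced cells, against 15002 and 15922 in control cells. Of 7 endoderm markers 2 were higher, Cubn at 1.05 and Amn at 0.29, with sums of 986 and 1024 in silenced cells, against 807 and 777 in control cells. The other 5 endoderm markers did not pass, and the median of the 7 was 0.07. In control cells at 96 h, 6 of the 7 were well above background on both arrays. Of the 5 feeder fibroblast markers that passed the filter 4 were lower, with sums of 1776 and 1748 in silenced cells, against 2445 and 2227 in control cells, while Col3a1, Lum and Postn did not pass the filter. The neural marker Nes was lower, at -1.02, as 1 of 4, with sums of 579 and 594 in silenced cells, against 965 and 905 in control cells. Of 5 mesoderm and heart markers Myl7 was higher, at 0.29, with sums of 1321 and 1275 in silenced cells, against 1151 and 1066 in control cells. Of the 8 embryonic stem cell markers 4 were higher, 3 of which were positive on each 96 h array; the exception, Dppa5a, was at -0.84 on replicate 1 and 1.26 on replicate 2. Pou5f1 was lower (fitted -1.05), at 0.01 on replicate 1 and -2.11 on replicate 2. At 24 h it passed as higher (fitted 0.68, adjusted p = 2.4e-08), but its 24 h arrays were of opposite sign. The sums of the list, 232238 and 368664 in silenced cells against 359142 and 194676 in control cells at 96 h, changed order with the dye.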

How the data were processed

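Total RNA (200 ng per labelling, per the labels' protocols) was hybridised to 4 two-colour arrays. The deposited scanner files hold intensity per spot and dye as written by Feature Extraction (version 10.7.1.1), per the file headers; the authors' deposited series table equals the scanner log10 ratio within 4.97e-06, and the submitters' processing notes also name limma. Median signals were corrected with normexp (offset 50) and normalized by loess within arrays, control spots at weight 0, in limma 3.58.1 (R 4.3.3). Spots of a probe were averaged, probes well above background on both arrays of at least 1 RNA group were kept (28082), and the brightest probe stood for a gene. Log2 ratios were fitted with lmFit and eBayes, with a mean per time and a dye term (1 residual and 33.2 prior degrees of freedom), two-sided, Benjamini-Hochberg adjusted over 21754 genes at 0.05. The 8 channels went through Aquantile normalization and lmscFit (intraspot correlation 0.896). Fits were also run on simulated data with independent noise and a dye effect that added as in the model. Those runs could not test whether these assumptions hold for the arrays.

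The members, lists and tests were chosen with earlier results of these data known. Values per array are given for members past a silencing test whose 2 arrays had 1 sign, and for Hif1a, Epas1, Slc2a1 and Ldha; others by range, with up to 6 by smallest p, and for time changes the 6 largest in each direction; other lists give up to 4 genes past the threshold by smallest p. Precision is limited by the number of arrays. The array's own genome build differs from that of the promoter table, so no array coordinates are given. One gene of the other lists is not reported here by name.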

Additional observations from a re-analysis of the deposited data

Results flagged for a closer look

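The effect of silencing differed between 96 h and 24 h for 7 members by the contrast of limma's fit with a dye term. The difference, 96 h minus 24 h on the log2 scale, was 0.60 for Ndrg1, 0.44 for Ankrd37, 0.37 for Pfkp, 0.32 for P4ha1, 0.32 for Plod2, 0.30 for Ero1a and -0.31 for Vldlr. Both 96 h arrays lay above both 24 h arrays for Ndrg1, Ankrd37, Pfkp, Plod2 and Ero1a, and below them for Vldlr, while those of P4ha1 overlapped. The 7 members were chosen by the contrast on these same ratios, so this separation is no added support. The second Pfkp probe had a fitted value of 0.00 at 96 h, but was dim, with a mean log2 intensity of 6.93 against 11.41 for the brightest.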

How the results depend on the processing

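The count of 13 members higher at 96 h was 0 with no replicate block (no dye term), 4 with offset 16, 16 with no background correction, 11 with median centring, 0 with the authors' ratios, 12 with no filter, 13 with probes well above background in all 8 channels, 10 with the mean of probes, and 0 without each array in turn and with no dye term (4 to 8 at an unadjusted p under 0.05); those fits had no degree of freedom left for a dye term, whose absence alone gives 0, and the lone array of a time is assumed to vary like the other time. The genes past the threshold numbered 2918, but 106 without the block, 1016 with offset 16, 1798 with median centring, 0 with the authors' ratios and 29 to 114 with an array left out. The 17 member probes became 1, 5 and 0 with no replicate block, offset 16 and the authors' ratios, and 0 to 1 with an array left out. For the difference of the effect between times, 7 members became 0, 1, 3, 0 and 4 with no replicate block, offset 16, median centring, the authors' ratios and the mean of probes, and 0 with an array left out. The median of the other HIF targets, 0.21, was 0.26, 0.22 and 0.17 with median centring, the authors' ratios and the mean of probes. With replicate 1 of 96 h left out it was 0.23, and with replicate 2 left out 0.22. That of the glycolytic enzymes, 0.09, was then 0.23 and -0.01. These are the medians of the single array left, as given above, and leaving out a 24 h array cannot change a 96 h value. Such fits are thus no check of stability. Gpi1 turned to -0.023 without replicate 2 of 96 h, which is by construction its ratio on replicate 1 of 96 h. Why its 2 arrays differed was not tested. At 24 h the count stayed at 0 in every alternative listed. Counts for the time change ran from 20 to 28 in silenced cells and 18 to 27 in control cells; a replicate block gave 27 and 25. Replicate numbers share the dye orientation (correlation of deviations between times 0.70 for ratios) and no label ties them to a shared batch, so the block on the channels is only an alternative. With 2 arrays per time and 1 residual degree of freedom, p-values lean on the spread pooled over genes.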
